A study of Sus scrofa with 36 samples.

Results

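A group of 3 annotated genes without protein product stands side by side on pig chromosome 1, in the stretch between HSF2 and GJA1, and all of them had higher levels in older hearts. They are ENSSSCG00000046311, ENSSSCG00000048922 and ENSSSCG00000043582, and they are 3 of the 2038 genes of the lncRNA class (long noncoding RNA) among the 9815 genes of the gene table. The members were taken by their identifiers, with the conditions that the class is lncRNA and that the gene starts in a set window of chromosome 1 around them, and they had been picked with their levels at the 4 ages in view. Their levels by age are therefore given as a description without a test, and tests were made on the other genes of the locus only.

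Whole hearts of domestic Yorkshire pigs, fed normally, were taken at postnatal days 1, 3, 7 and 28 (P1, P3, P7 and P28). No allele, agent or injury was applied at any age. Gene counts came from 12 total RNA libraries of batch cd, sequenced by CD Genomics from 3 pigs at each age, out of 36 libraries in the series, and the pigs of an age are told apart here by the numbers 4 to 6 of the column names. The sex of each of these pigs is not given in the sources used here. These whole hearts held both myocytes and nonmyocytes, so fewer cells of a type and less RNA per cell cannot be told apart. Counts on genes ranged from 8887176 to 14883849 per library, and between 7.09% and 19.7% of them fell on genes of the signal recognition particle RNA.

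Long noncoding RNAs are transcribed and usually spliced like messenger RNAs but have no long reading frame. Some act in cis, on genes near the site where they are made, others act elsewhere in the nucleus or in the cytoplasm, and for most annotated ones no function is known. Many are made in 1 tissue or at 1 stage, and for the 3 genes here the table gives neither a name nor a strand. On one side of them lies HSF2, a heat shock transcription factor. On the other side lies GJA1, which encodes connexin 43, the gap junction protein that couples ventricular myocytes electrically.

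The 3 genes covered 107.7 kb of chromosome 1, from 40590137 to 40697828. ENSSSCG00000046311 lies at 40590137 to 40600773, with 2669 bases of annotated transcript in a span of 10637 bases. ENSSSCG00000048922 lies at 40625377 to 40640292, with 2108 bases of transcript in a span of 14916. ENSSSCG00000043582 lies at 40662414 to 40697828, with 3223 bases of transcript in a span of 35415. The transcript length was shorter than the span in each, so all 3 are annotated with introns. Gaps of 24.6 kb and 22.1 kb separated them, and 0 other annotated genes overlapped any of them. Just before that window, the lncRNA gene ENSSSCG00000046149 starts at 40473051 and had 0 to 5 counts per library, whereas the 2 members nearest to it had 271 to 2235. In the RefSeq annotation of Sscrofa11.1, 2 unnamed lncRNA genes are listed between HSF2 and GJA1. LOC110260218 overlaps ENSSSCG00000048922 and LOC102158650 overlaps ENSSSCG00000043582, and no RefSeq gene was found at ENSSSCG00000046311.

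ENSSSCG00000046311, the member nearest to HSF2, was at about 3 times its P1 level by P7 and stayed there. In CPM (reads of a gene scaled to an equal total per library, here by the TMM method), its level was 29.8, 36.3 and 60.9 in the P1 libraries and 80.1, 59.5 and 91.0 in the P3 libraries of pigs 4, 5 and 6. It was 125.1, 148.5 and 95.7 CPM at P7 and 121.2, 122.2 and 141.2 CPM at P28. The P7 and P28 libraries all lay above the P1 libraries, whereas P3 pig 5 lay just under P1 pig 6. The means were 42.3 ± 16.4 CPM at P1, 76.9 ± 16.0 at P3, 123.1 ± 26.4 at P7 and 128.2 ± 11.2 at P28 (SD, n = 3 pigs each). The fitted log2 fold change against P1 was 0.86 (SE 0.25) at P3, 1.54 (SE 0.25) at P7 and 1.6 (SE 0.25) at P28. From P7 to P28 the ratio of the means was 1.04 and the libraries overlapped.

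ENSSSCG00000048922, the middle member, went up in other steps. Its level was 20.2, 23.9 and 42.7 CPM at P1 and 61.5, 58.1 and 58.7 CPM at P3 in pigs 4, 5 and 6. At P7 it was 66.5, 79.3 and 58.0 CPM, which overlapped the P3 libraries, and at P28 it was 123.6, 106.5 and 154.5 CPM. All libraries of each later age lay above all P1 libraries, and all P28 libraries lay above all P7 libraries. The means were 28.9 ± 12.0 CPM at P1, 59.4 ± 1.80 at P3, 68.0 ± 10.7 at P7 and 128.2 ± 24.3 at P28 (SD, n = 3 each). The log2 fold change against P1 was 1.04 (SE 0.24) at P3, 1.23 (SE 0.24) at P7 and 2.15 (SE 0.25) at P28, where the ratio of the means was 4.43. The rise thus came as a step from P1 to P3 by 2.05 times and a step from P7 to P28 by 1.89 times, with 1.14 times between P3 and P7.

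ENSSSCG00000043582, the member nearest to GJA1, was read from far fewer molecules. It had 16, 20 and 39 counts at P1, 43, 21 and 34 at P3, 27, 62 and 67 at P7 and 118, 72 and 80 at P28 in pigs 4, 5 and 6. The exact 95% Poisson interval, which covers counting error only, ran from 9.15 to 26.0 for the lowest of these counts and from 97.7 to 141 for the highest. Every P28 library was above every P1, P3 and P7 library, while P1, P3 and P7 overlapped each other. The mean level was 1.95 ± 1.10 CPM at P1, 3.04 ± 0.813 at P3, 4.01 ± 1.53 at P7 and 7.76 ± 1.77 at P28 (SD, n = 3 each). Its log2 fold change was 0.65 (SE 0.42) at P3, 1.05 (SE 0.41) at P7 and 2.00 (SE 0.41) at P28.

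**Figure D1:**
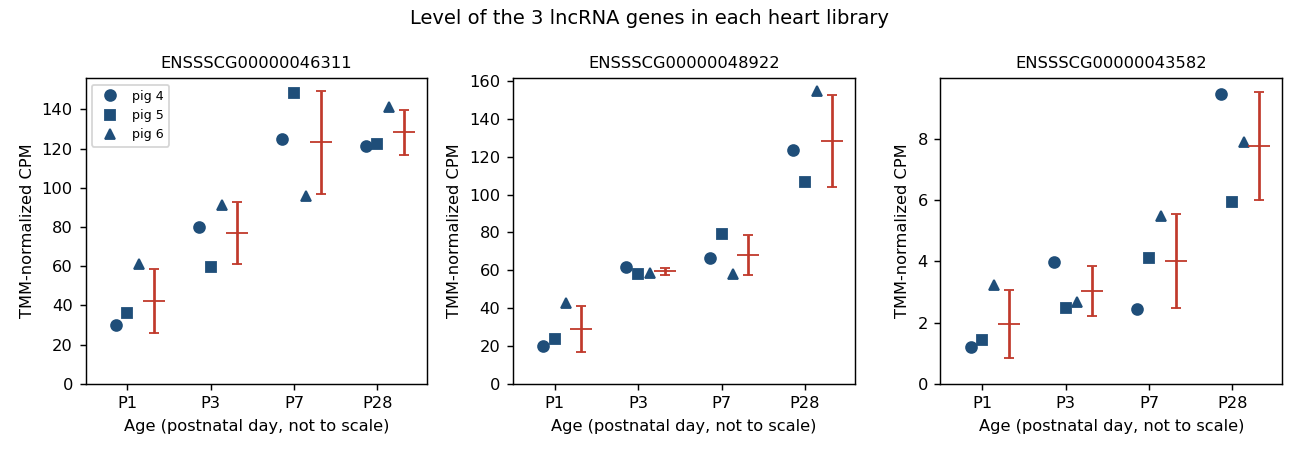
TMM-normalized CPM of each lncRNA gene (vertical axis, a separate scale for each gene) in the 12 heart libraries by age, with 1 symbol per pig and the mean ± SD of 3 pigs as a red bar. ENSSSCG00000046311 is level between P7 (123.1 CPM) and P28 (128.2 CPM), and the 2 others have their highest values at P28.

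Set against the whole table, 1 of the 3 genes was wholly above P1 at P3, 2 were at P7 and 3 were at P28. Of the 5526 genes tested, 8.41% were wholly above P1 at P3, 15.3% at P7 and 22.5% at P28, and of the 594 tested lncRNA genes 9.93%, 15.3% and 23.6% were. The members were picked on these libraries, so nothing is read from their counts or from the measures in the rest of this paragraph, which are descriptions. The median log2 fold change from P1 to P28 was 2.00 over the 3 members, 0.00 over all tested genes and 0.10 over the tested lncRNA genes. The ages accounted for 84.3% of the variance of log2 CPM of ENSSSCG00000046311, 89.3% for ENSSSCG00000048922 and 74.9% for ENSSSCG00000043582.

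Levels of different genes were compared per kilobase of annotated transcript. Over the 12 libraries, the mean level was 34.7 CPM per kb for ENSSSCG00000046311, 33.7 for ENSSSCG00000048922 and 1.30 for ENSSSCG00000043582. The median was 0.922 CPM per kb for the 594 tested lncRNA genes and 13.04 for the 4591 tested protein-coding genes. The first 2 members were therefore above the middle of the protein-coding genes, and the third was near the middle of the lncRNA genes. Ranked by level per kb among the 594, ENSSSCG00000046311 was at place 22 at P1, 14 at P3, 8 at P7 and 9 at P28. ENSSSCG00000048922 was at place 26 at P1, 15 at P3, 12 at P7 and 6 at P28. ENSSSCG00000043582 was at place 341 at P1 and 173 at P28. Together the 3 genes took 0.201% ± 0.0927 of all reads on lncRNA genes at P1, 0.424% ± 0.0679 at P3, 0.574% ± 0.120 at P7 and 0.547% ± 0.104 at P28 (SD, n = 3 each).

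The balance between the members was not the same at each age. Reads on ENSSSCG00000048922 per read on ENSSSCG00000046311, a ratio within a library that does not depend on the scaling, were 0.679, 0.659 and 0.701 at P1 in pigs 4, 5 and 6. They were 0.767, 0.976 and 0.645 at P3, 0.532, 0.534 and 0.606 at P7 and 1.02, 0.871 and 1.09 at P28. The P7 libraries were below those of every other age, and the P28 libraries were above the P1 and P7 libraries but overlapped P3. The mean ratio was 0.680 ± 0.0211 at P1, 0.796 ± 0.168 at P3, 0.558 ± 0.0423 at P7 and 0.995 ± 0.113 at P28 (SD, n = 3 each). The ratio of ENSSSCG00000043582 to ENSSSCG00000048922 was 0.0649 ± 0.00905 at P1, 0.0508 ± 0.0120 at P3, 0.0609 ± 0.0300 at P7 and 0.0611 ± 0.0136 at P28, and here the ages overlapped throughout. Both ratios rest on the values by which the genes were picked and were not tested.

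**Figure D2:**
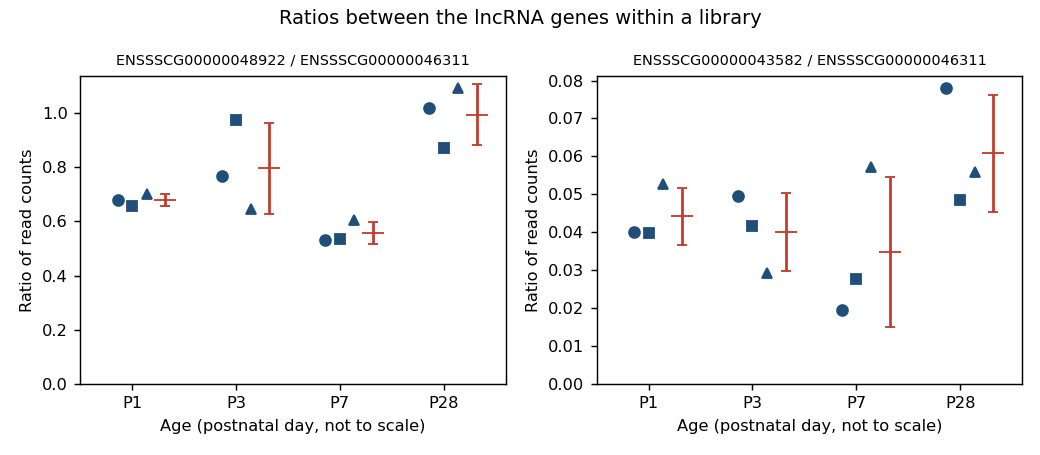
Ratio of read counts between 2 members within each library (vertical axes) by age, for ENSSSCG00000048922 (left) and ENSSSCG00000043582 (right) over ENSSSCG00000046311, with 1 symbol per pig and the mean ± SD of 3 pigs as a red bar. On the left, the 3 P7 libraries (0.532 to 0.606) are below the others and the P28 libraries reach 1.09.

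The order of the pigs within an age agreed between members at some ages and not at others. In the P1 hearts, pig 6 had the highest and pig 4 the lowest level of all 3 genes, and in the P3 hearts pig 5 had the lowest level of all 3. The highest P3 pig was pig 4 for ENSSSCG00000048922 and ENSSSCG00000043582 and pig 6 for ENSSSCG00000046311. At P7, pig 6 was the lowest for ENSSSCG00000046311 and ENSSSCG00000048922 and the highest for ENSSSCG00000043582. At P28, the highest was pig 6 for the first 2 members and pig 4 for ENSSSCG00000043582, while the lowest was pig 5 for ENSSSCG00000048922 and ENSSSCG00000043582 and pig 4 for ENSSSCG00000046311. Over the 12 libraries, Pearson's r of log2 CPM was 0.914 between ENSSSCG00000046311 and ENSSSCG00000048922, 0.905 between ENSSSCG00000048922 and ENSSSCG00000043582 and 0.800 between the outer 2. With the mean of each age removed, r was 0.861, 0.614 and 0.453. Among the 202 pairs of tested lncRNA genes that follow each other with starts within 200 kb, the median r was 0.472 (quartiles 0.166 and 0.787) and the median with the ages removed was 0.440 (quartiles 0.134 and 0.715). With the ages removed, both pairs with ENSSSCG00000043582 thus lay between these quartiles, and the pair of the first 2 members lay above them. The outer 2 members do not follow each other, so for that pair the background is of another kind. The libraries share age and depth, so these are descriptions over 12 libraries.

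The hearts expressed their defining genes at every age. The summed level of 8 cardiomyocyte markers (ACTC1, TPM1, MYBPC3, NPPB, MYOM1, MYL3, TNNC1 and TNNI3) was 86150 to 98990 CPM at P1, 81690 to 94450 at P3, 74230 to 82710 at P7 and 83780 to 98520 at P28, with all P7 libraries below those of P1 and P28. By edgeR's quasi-likelihood test with all genes adjusted together, 1 of the 8 (MYBPC3) was higher and 1 (ACTC1) lower at P28 than at P1, against 7.38% higher and 7.93% lower of all tested genes. The cardiomyocyte sum overlapped between P1 and P28, whereas the leukocyte, fibroblast, endothelial and erythroid sums did not, and no sum was tested. Of 9 leukocyte markers, 4 (CD74, SPI1, C1QB and TYROBP) were higher and 0 lower at P28, and their summed level was 1494 to 1784 CPM at P1, 1523 to 2046 at P3, 1357 to 1474 at P7 and 2226 to 2745 at P28. At P7, where the first 2 members were already wholly above P1, the leukocyte sum was below its P1 range. That list holds mostly myeloid and complement genes. Of 15 lymphocyte genes, a list made after the values were seen, 12 were in the table and 9 were tested, and of these 8 were higher and 0 lower at P28. CD22, a receptor of B cells, had mean levels of 2.03 CPM at P1, 3 at P3, 4.93 at P7 and 11.4 at P28, and LCK, a kinase of T cells, had 0.944, 1.85, 2.92 and 4.03. Over the 12 libraries, r with the mean log2 CPM of the members was 0.889 for CD22 and 0.799 for LCK, and over the 9 tested genes it ranged from −0.421 (CD79A) to 0.889. With the ages removed it was 0.370 for CD22 and 0.267 for LCK, within a range from −0.211 (CD79A) to 0.695 (PRDM1). As the list was made with these values in view, they are a description only. The ninth, CD79A of the B cell receptor, was not called (627.5 CPM at P1 and 558.8 at P28) and made up most of the summed level of the list, which was 637.8 to 650.6 CPM at P1, 545.5 to 652.3 at P3, 385.5 to 544.8 at P7 and 558.7 to 643.3 at P28. MS4A1 and PAX5, also on the list but too low for the test, had 0.102 and 0.161 CPM at P1. At P28 they had 1.085 and 0.373 CPM, so the summed level mostly describes CD79A alone. Of 5 fibroblast and matrix markers, 2 were lower (FBN1 and TCF21) and 0 higher at P28, with sums of 5182 to 5458 CPM at P1, 2997 to 6060 at P3, 5137 to 5854 at P7 and 2137 to 2800 at P28. The leukocyte and fibroblast sums at P3 and the fibroblast sum at P7 overlapped their P1 ranges. Of 5 endothelial markers 1 (TEK) was higher and 0 lower at P28, and the other 4 had log2 fold changes of −0.74 to −0.32 that did not pass the test. The endothelial sum was 917.6 to 1218 CPM at P1, 843 to 1619 at P3, 935.1 to 1252 at P7 and 849 to 905.2 at P28, wholly below P1 at P28. Of 2 erythroid markers 0 were called, and their sum, nearly all of it from EPB41, was 151.5 to 194 CPM at P1, 200.6 to 230.4 at P3, 205.8 to 247.1 at P7 and 212.4 to 217.2 at P28. This sum, in effect the level of EPB41, was above its P1 range at every later age, as were the levels of ENSSSCG00000048922. EPB42, with a mean of 3.5 CPM over the 12 libraries, had a log2 fold change of −0.53 from P1 to P28. No marker named or counted here had a mean of 0 over the 12 libraries, no smooth muscle marker was in it, and the part of cell makeup in the levels of the lncRNA genes was not tested.

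Whether the genes around the cluster changed with age was asked for its annotated neighbours, which the choice of the members did not use. Of the 5 nearest protein-coding genes on each side, 7 of the 10 had enough counts for the test, which were SMPDL3A, FABP7, PKIB, SERINC1 and HSF2 on one side and GJA1 and TBC1D32 on the other. Across the 4 ages, 1 of the 7 (FABP7) had an adjusted p under 0.05 in edgeR's quasi-likelihood test, against 21.4% of all tested genes. PKIB (adjusted p of 0.0549) and GJA1 (0.0563) were just over the threshold in that test. They were called in 6 and 7 of 19 alternatives, in that order. In pairs with P1, 0 of 7 passed at P3 (0.0543% of all genes), 0 of 7 at P7 (2.01%) and 1 of 7, PKIB, at P28 (15.3%). The neighbours with an unadjusted p under 0.05 numbered 3 across the 4 ages (37.5% of all tested genes), and 0 at P3, 2 at P7 and 1 at P28, against 15.2%, 16.1% and 30.7% of all tested genes. DESeq2 called 0 at P3, 2 at P7 and 1 at P28 (2.21%, 6.59% and 19.7% of all genes), and limma voom called 0, 1 and 1 (0.0362%, 3.6% and 14.8%). No neighbour was called higher at P28 by edgeR, DESeq2 or limma voom.

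GJA1 (40988515 to 41002137), 290.7 kb from the cluster, was by far the most abundant gene of the locus, with 801.1 CPM per kb against 34.7 for ENSSSCG00000046311. Its level was 3463, 2983 and 3023 CPM at P1, 1995, 2110 and 2451 at P7 and 3420, 3261 and 2620 at P28 in pigs 4, 5 and 6. At P3 it was 2234 CPM in pig 5 and 2930 in pig 6, with pig 4 between them. The P3 and P7 libraries lay below all P1 libraries and the P28 libraries overlapped them. Between P1 and P28 it differed by −0.03 on the log2 scale (SE 0.15), with an edgeR adjusted p of 0.925, against 1.6 to 2.15 for the lncRNA genes. The value for P7 was −0.53 (SE 0.15) with an edgeR adjusted p of 0.077, and this passed the threshold in 3 of 20 alternatives, where the adjusted p ranged from 0.0193 to 0.269.

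PKIB (39913760 to 40022715), 567.4 kb away on the HSF2 side, encodes an inhibitor of the cAMP-dependent protein kinase. It had 44.6, 38.9 and 35.3 CPM at P1 and 17.5, 10.7 and 11.03 CPM at P28, without overlap, and its levels at P3 (10.6 to 37.4 CPM) and P7 (16.7 to 39.2 CPM) reached into both. The ratio of its P28 to its P1 mean was 0.331 (log2 fold change −1.596, SE 0.41), with an edgeR adjusted p of 0.0212. The call was lost without P1 pig 4 (edgeR adjusted p = 0.0505), P28 pig 5 (0.0751) or P28 pig 6 (0.0798), and the adjusted p over 20 alternatives ranged from 0.00116 to 0.0798.

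FABP7 (39871145 to 39876387), a fatty acid binding protein best known from the brain, was high at P7 only. It had 1.27, 8.28 and 7.74 CPM at P1, 6.09, 2.95 and 6.64 at P3, 17.7, 23.5 and 22.2 at P7 and 2.81, 4.28 and 2.27 at P28. The P7 libraries were above those of every other age, and the change across the 4 ages had an adjusted p of 0.0069 from edgeR's test (1.02e-06 to 0.0286 over 19 alternatives). Against P1 alone, the P7 level was higher by 1.88 on the log2 scale (SE 0.51) with an edgeR adjusted p of 0.0686, and 4 of 20 alternatives brought this under 0.05. At P28 it was not called (log2 −0.88, SE 0.53, edgeR adjusted p of 0.283), but it was without P1 pig 4 (−1.355, adjusted p of 0.0245). The P7 means of the lncRNA genes lay between their P3 and P28 means, though not every P7 library did.

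The 4 other tested neighbours passed the test in no comparison with P1. HSF2 had 76.9 CPM at P1 and 74.6 at P28 (log2 fold change −0.04, SE 0.19), and SERINC1, a member of a family of membrane proteins, had 514.3 and 558.8 (0.12, SE 0.15). TBC1D32, a protein of the primary cilium, had 99.96 and 109.2 CPM (0.13, SE 0.18). SMPDL3A, a relative of acid sphingomyelinase, had 17.6 and 22.7 CPM (0.37, SE 0.22). Its P28 libraries (20.9 to 24.3 CPM) lay wholly above its P1 libraries (13.9 to 20.3 CPM), as in 22.5% of all tested genes. Its r with the mean pattern of the members was 0.637, the highest among the neighbours. For GJA1 this r was −0.192, for HSF2 0.0989, for FABP7 0.130 and for PKIB −0.642. With the ages removed it was 0.523 for SMPDL3A, −0.103 for GJA1, 0.204 for HSF2, 0.545 for FABP7 and −0.117 for PKIB. The remaining coding neighbours were ENSSSCG00000028308 and ENSSSCG00000050869 with 0 counts in every library and ENSSSCG00000050086 with 0 to 6. A count of 0 allows a level of up to 0.354 CPM in the library with the fewest counts, from a limit of 3 counts. Of the 8 further genes annotated within 1 Mb of the cluster, 5 of them lncRNA genes, 0 had enough counts for the test. The highest count among them was 12, for ENSSSCG00000045816 between GJA1 and TBC1D32.

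**Figure D3:**
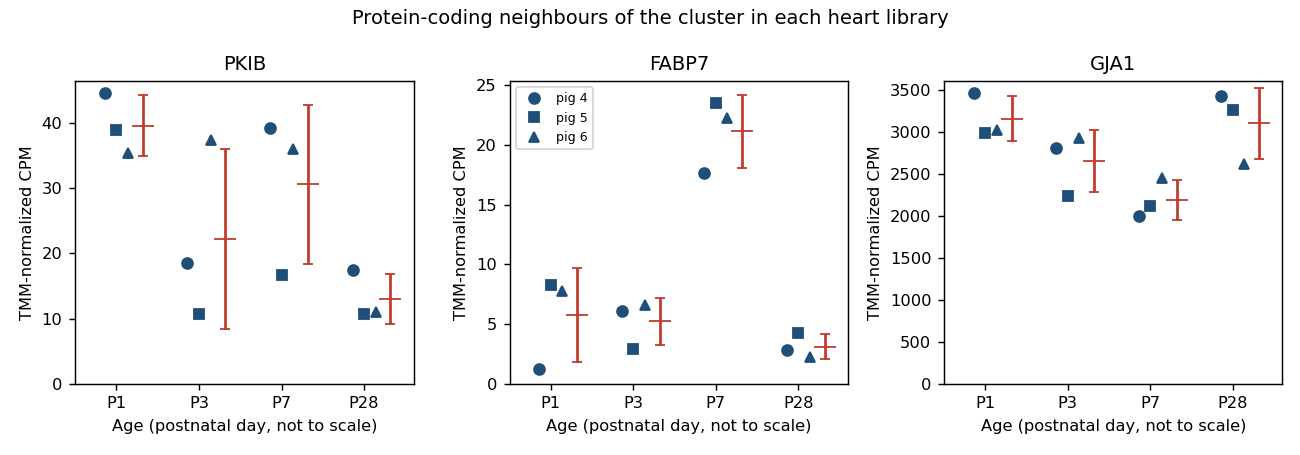
TMM-normalized CPM (vertical axes, a separate scale for each gene) of PKIB, FABP7 and GJA1 in the 12 libraries by age, with 1 symbol per pig and the mean ± SD of 3 pigs as a red bar. PKIB is lowest at P28, FABP7 is high at P7 (17.7 to 23.5 CPM), and GJA1 at P28 overlaps P1.

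Over a wider stretch, 21 other genes within 3 Mb of the cluster were tested. From P1 to P28, 1 was called higher and 1 lower, against 7.38% and 7.93% of all tested genes. The lower one was PKIB. The higher one, named after its values were seen, was TRDN, which encodes triadin of the calcium release unit of the sarcoplasmic reticulum, at 0.73 on the log2 scale (SE 0.19) with an edgeR adjusted p of 0.0221. Log2 fold changes of the 21 genes ranged from −1.72 (SE 0.63) for NKAIN2 to 1.52 (SE 0.62) for the lncRNA gene ENSSSCG00000048747, both without a call and both named after their values were seen.

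**Figure D4:**
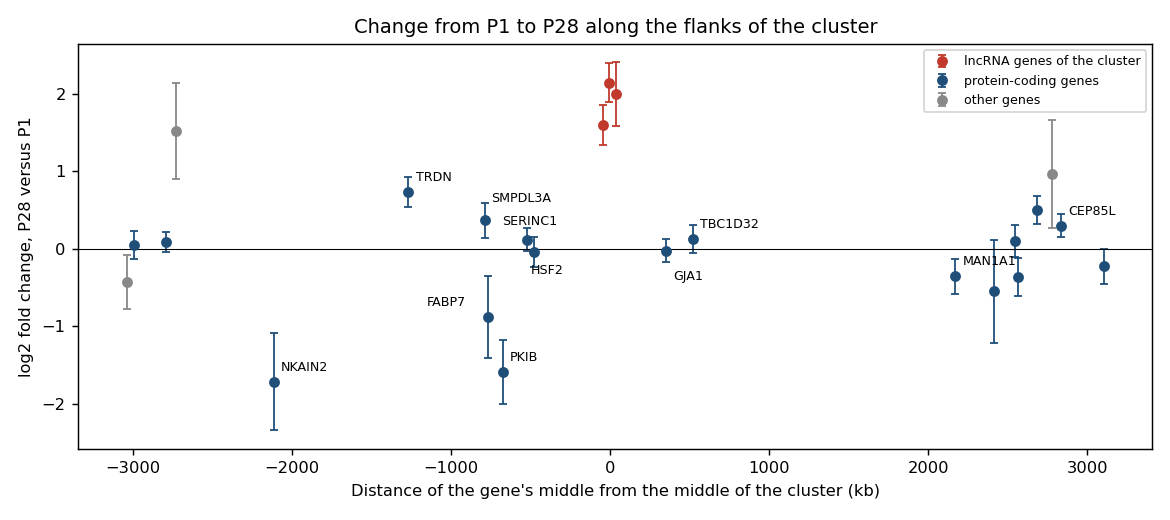
Fitted log2 fold change from P1 to P28 (vertical axis, bars are ± SE) of the tested genes within 3 Mb of the cluster, against the distance of each gene's middle from the middle of the cluster in kb (horizontal axis). The 3 lncRNA genes (red) are at 1.6 to 2.15, and GJA1 and HSF2 on either side are at −0.03 and −0.04.

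Genes elsewhere with a similar pattern were sought among all 5526 tested genes by Pearson's r with the mean log2 CPM of the members over the 12 libraries. The highest were the lncRNA gene ENSSSCG00000051238 (chromosome 2, 150745634 to 150756245, r = 0.919), ATP4A (chromosome 6, r = 0.910), the pseudogene ENSSSCG00000044984 (chromosome 13, r = 0.907), the unnamed coding gene ENSSSCG00000002953 (chromosome 6, r = 0.898) and the lncRNA gene ENSSSCG00000050105 (chromosome 13, r = 0.892). ENSSSCG00000051238 had 79.2 ± 22.1 CPM at P1, 105.5 ± 23.9 at P3, 239.1 ± 19.3 at P7 and 454.9 ± 75.6 at P28 (SD, n = 3 each). ATP4A, the catalytic subunit of the gastric proton pump, had a low level, with 0.811 ± 0.0598 CPM at P1 and 2.51 ± 0.556 at P28. With the ages removed, r was 0.715 for ENSSSCG00000051238, 0.274 for ATP4A, 0.399 for ENSSSCG00000044984, 0.413 for ENSSSCG00000002953 and −0.10 for ENSSSCG00000050105. The most opposite patterns were those of SLC2A5, a fructose transporter (r = −0.942), and of WFDC1, a secreted protein with a whey acidic protein domain (r = −0.925). WFDC1 went from 299.9 ± 77.9 CPM at P1 to 153.8 ± 47.9 at P3, 155.4 ± 8.47 at P7 and 78.6 ± 7.97 at P28 (SD, n = 3 each).

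**Figure D5:**
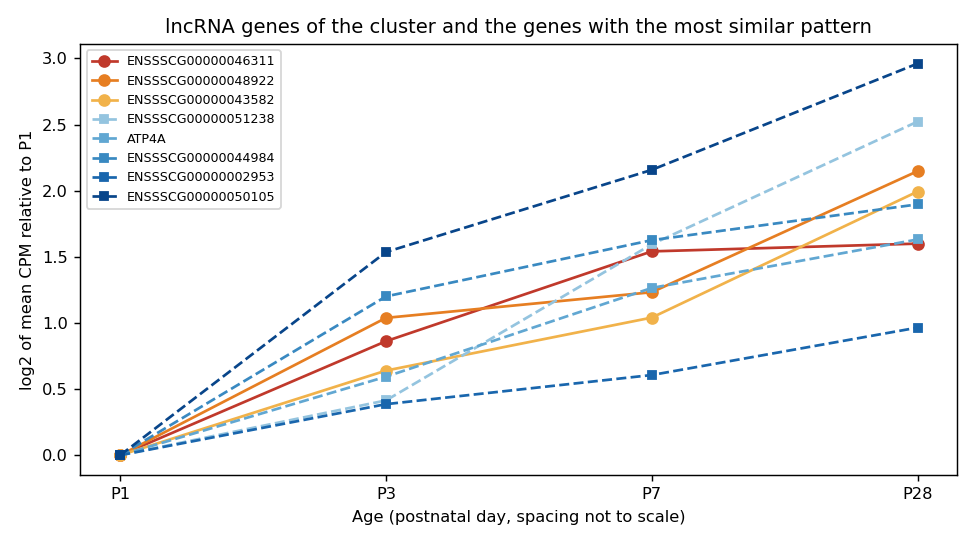
Log2 of the mean CPM of 3 pigs relative to P1 (vertical axis) by age for the 3 members (solid lines) and the 5 genes with the highest r to their mean pattern (dashed lines). ENSSSCG00000050105 ends highest, at 21.5 CPM from 2.77, and ENSSSCG00000046311 is the flattest line between P7 and P28.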

How the data were processed

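The authors deposited read counts per gene for the 12 cd libraries (rRNA-depleted, stranded total RNA), without normalization. The aligner, gene counter, strand setting, annotation version and treatment of reads that match several places are not given in the sources used here for this table (the submitters' processing notes and the study's methods name STAR and Sscrofa10.2, the latter for the circular RNA), so reads of overlapping or repeated sequence could be assigned differently. The table holds genes of chromosomes 1, 2, 6 and 13, and its last line, cut off and without counts, was left out. Of 4355 genes with a symbol in both tables, 91.1% start within 10000 bases of their RefSeq position, so positions are read as Sscrofa11.1, which differs from the build named for the circular RNA. The back-splice and miRNA tables were not used here. Gene and RefSeq sequences were not analysed here, nor were promoter motifs. A further cardiomyocyte marker is not reported here.

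The members, gene lists and tests were chosen with earlier results of these data known. Columns give the age of each library, and 3 libraries of different pigs form a group. Genes with at least 10 counts in at least 3 libraries were fitted with edgeR 4.0.16 (quasi-likelihood, TMM, 4 ages in one fit, R 4.3.3) and p-values were adjusted by Benjamini-Hochberg over 5526 genes. The common dispersion was 0.0446. A call needed an adjusted p under 0.05. SE is the log2 fold change over the root of the F statistic. CPM used TMM-scaled library totals, r a prior count of 2. The test was run on simulated counts first. Alternatives were DESeq2 1.42.0 (its size factors or its test), limma 3.58.1 voom, other filters, plain totals, no signal recognition particle genes, a replicate block, only 2 ages, the thresholds the study states (unadjusted p of 0.05, log2 change of 0.5) and leaving out each library. Named genes were the members, the 5 nearest coding genes on each side, called genes within 1 Mb, and the 5 most and 2 least similar genes. TRDN, NKAIN2, ENSSSCG00000048747, ENSSSCG00000046149, ENSSSCG00000045816, the marker genes and the lymphocyte genes fall outside this rule, and all but the markers were named after their values were seen. Plots used matplotlib 3.10.9.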

Additional observations from a re-analysis of the deposited data

How the results depend on the processing

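The 9 log2 changes of the lncRNA genes kept their direction under every alternative run. The 36 values under other scalings and the replicate block moved by less than the SD between pigs. Leaving out 1 library gave 0.85 to 1.42 at P3, 1.03 to 1.61 at P7 and 1.94 to 2.53 at P28 for ENSSSCG00000048922, and 0.40 to 1.19, 0.77 to 1.59 and 1.74 to 2.54 for ENSSSCG00000043582, with each highest value without P1 pig 6. For ENSSSCG00000046311 the range at P28 was 1.398 to 1.95. Spearman's rho was 0.853 (ENSSSCG00000046311 with ENSSSCG00000048922), 0.776 (ENSSSCG00000048922 with ENSSSCG00000043582) and 0.664 (ENSSSCG00000046311 with ENSSSCG00000043582), and r with the ages removed was 0.453 (ENSSSCG00000046311 with ENSSSCG00000043582) and 0.614 (ENSSSCG00000048922 with ENSSSCG00000043582). With plain library totals the median log2 change of all genes at P7 was 0.13, against −0.01.

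Of the neighbours, 1 was called across the 4 ages, against 3 with DESeq2 and 2 each with limma voom, without a filter, without signal recognition particle genes and with the replicate block. Leaving out 1 library gave 1 to 3, with 3 without P3 pig 4, 5 or 6 and 2 without P7 pig 5 or P28 pig 6. At P7, 0 were called, against 2 with DESeq2 and 2 with the study's thresholds, which 648 of all 5526 tested genes met. With limma voom, without a filter and with only the 2 ages, 1 was called. Leaving out 1 library gave 0 to 2 (2 without P3 pig 5), and at P28 0 to 1 (0 without P28 pig 5 or 6, and FABP7 in place of PKIB without P1 pig 4). The causes were not tested. Over all genes, calls across the 4 ages went from 1183 to 1786 with DESeq2 and 719 without P28 pig 6. At P3 they went from 3 to 122 with DESeq2 and 585 with the study's thresholds. At P7 they went from 111 to 364 with DESeq2 and 351 with only the 2 ages. They were 648 with the study's thresholds and 21 without P7 pig 5. At P28 they went from 846 to 1276 with the study's thresholds, 463 without P1 pig 6 and 1412 without P3 pig 5. Same-numbered pigs of different ages are different animals, and in 5 of 18 such pairs of libraries the correlation of deviations was over 0.1 (−0.186 to 0.331). The median was 0.0354 for these pairs and −0.0176 for pairs of different numbers and ages, and 6 of the 12 libraries correlated best with one of their own number. As the animals differ, the main fit did not pair the samples by number. Whether samples of 1 number share a processing step was not tested. At 16 to 118 counts, ENSSSCG00000043582 is the member that depth limits most.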
